A study of Mus musculus with 19 samples.

Results

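A set of 7 genes of the NF-kappaB pathway were followed across mouse thymocyte development: the factor genes Nfkb1, Nfkb2, Rel and Relb, and the feedback inhibitor genes Nfkbia, Nfkbid and Tnfaip3. They were taken by name and are 7 of the 28692 genes in the deposited RNA count tables. The experiment asked how CD4 and CD8 T cell lineages separate during positive selection, by CITE-seq, in which antibodies carry sequence tags that are counted beside the RNA of the same cell. RNA and 111 antibody tags were counted in each thymocyte. Thymi of 17 female mice aged 4 to 8 weeks were run in 19 lanes, with 5 wild-type C57BL/6 mice (B6) and 2 mice of each of 6 lineage-restricted genotypes. AND and OT-II mice carry a T cell receptor (TCR) transgene specific for MHC class II, and MHCI-/- mice lack B2m. These 3 genotypes, 6 mice, are called CD4-fated. F5 and OT-I mice carry a TCR transgene specific for MHC class I, and MHCII-/- mice lack H2-Ab1. These 3 genotypes, 6 mice, are called CD8-fated. AND and F5 mice were also Rag1-/-, so that they make no other TCR, and the F5 transgene is driven by CD2 sequences. A sort that kept CD5+TCRb+ cells was applied to 3 wild-type mice and to all mice without an MHC class, and all other thymi were unsorted. All OT-I and OT-II mice and the 2 unsorted wild-type mice were processed in experiment 3, so that a difference between OT mice and mice of the other experiments cannot be told apart from the experiment. AND and F5 replicate 1 were processed in experiment 1 and replicate 2 in experiment 2, and the mice without an MHC class in experiment 2.

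NF-kappaB factors are dimers of proteins made by 5 genes, of which Rela is the one not among the members. Nfkb1 and Nfkb2 encode the precursors p105 and p100, which are cut to p50 and p52, and Rel and Relb encode subunits that can activate transcription. In resting cells the dimers are held in the cytoplasm by IkB proteins. TCR signaling and receptors of the TNF receptor superfamily lead to IkB degradation or p100 processing. Nfkbia encodes IkBa, the classical inhibitor, and Nfkbid encodes IkBNS, an atypical nuclear IkB protein that is induced by TCR signals. Tnfaip3 encodes A20, a ubiquitin-editing enzyme that restrains the pathway. Nfkbia and Tnfaip3 are textbook targets of the factors they restrain. In the thymus the pathway is known for its part in the survival of maturing single-positive (SP) cells, in negative selection and in the development of regulatory T (Treg) cells.

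The members lie on 6 chromosomes of GRCm38 (mm10), the build of the submitters' processing notes. Nfkb1 (ENSMUSG00000028163) spans chr3:135584655-135691969, Nfkb2 (ENSMUSG00000025225) chr19:46300994-46312400, Rel (ENSMUSG00000020275) chr11:23736847-23770969 and Relb (ENSMUSG00000002983) chr7:19606217-19629438. Nfkbia (ENSMUSG00000021025) spans chr12:55489409-55492647, Nfkbid (ENSMUSG00000036931) chr7:30421731-30428749 and Tnfaip3 (ENSMUSG00000019850) chr10:19000910-19015410. In the RefSeq annotation Nfkb2 overlaps 4833438C02Rik and Psd in position, and Nfkb1 overlaps Gm46827. The strands of these genes were not compared, so whether reads from the shared stretches can be assigned with certainty was not tested.

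RefSeq promoter windows (GRCm38.p6, 250 bases before to 50 after a transcript start) were matched by symbol for 5 members, Nfkb2, Rel, Nfkbia, Nfkbid and Tnfaip3. Nfkb1 and Relb had no window. The consensus kappaB site, a 10-base motif bound by NF-kappaB dimers, was searched on both strands. At least 1 window of each of the 5 genes held a match, and 7 of their 10 windows did, where Nfkb2 windows overlap and share a match. Of all 32851 windows of the same length 8.46% held a match and 1.22% held 2 or more. The 8 stretches printed next are those of the first Nfkb2 window and of all windows of the other 4 genes with a match, shown to let a reader see the letters matched in the start regions of the members. Each is 30 bases long, 5′ to 3′ on the strand of the gene, with the matched bases in capitals and with the position of the first matched base counted from the transcript start. Matches that overlap by all but 1 base are printed as 1 run.
Nfkb2 at -39, chr19:46304689-46304718, plus strand: gatcgtcacGGGAATTCCCCccctcggggg
Nfkb2 at -11, chr19:46304716-46304745, plus strand: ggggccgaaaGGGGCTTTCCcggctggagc
Rel at -92, chr11:23771041-23771070, minus strand: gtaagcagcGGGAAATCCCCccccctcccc
Nfkbia at -29, chr12:55492657-55492686, minus strand: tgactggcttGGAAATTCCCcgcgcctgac
Nfkbid at -226, chr7:30422170-30422199, plus strand: gccccgccctGGGACTTCCCagagcaccac
Nfkbid at -181, chr7:30422215-30422244, plus strand: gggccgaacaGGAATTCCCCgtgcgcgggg
Tnfaip3 at -125, chr10:19015516-19015545, minus strand: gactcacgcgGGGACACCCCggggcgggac
Tnfaip3 at -12, chr10:19015403-19015432, minus strand: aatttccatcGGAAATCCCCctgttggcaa
A match to the consensus is a description of the letters and not a measured binding site.

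The upstream part of the window is printed for Nfkbia, and without its last base for Rel, the factor gene and the classical inhibitor gene, whose levels took different orders over the cell classes.
Rel, chr11:23770971-23771219, minus strand: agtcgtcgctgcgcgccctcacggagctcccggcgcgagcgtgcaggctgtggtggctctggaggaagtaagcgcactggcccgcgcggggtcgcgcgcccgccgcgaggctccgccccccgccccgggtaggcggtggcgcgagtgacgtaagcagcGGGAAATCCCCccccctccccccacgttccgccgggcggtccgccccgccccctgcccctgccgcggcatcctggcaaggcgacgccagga
Nfkbia, chr12:55492648-55492897, minus strand: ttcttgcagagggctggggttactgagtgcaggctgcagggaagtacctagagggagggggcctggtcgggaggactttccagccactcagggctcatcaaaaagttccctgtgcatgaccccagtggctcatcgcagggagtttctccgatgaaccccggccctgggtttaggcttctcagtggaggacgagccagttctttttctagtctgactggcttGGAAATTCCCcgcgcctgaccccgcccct
In both runs the match begins within 92 bases of the transcript start.

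Levels are given as CPM: the unique molecular identifiers (UMIs, 1 per captured RNA molecule) of a gene divided by all UMIs of the same cells, times 1000000. Reads come from the 3′ end of transcripts, so that levels are compared within a gene and not between genes. Lanes held 2550 to 9408 cell barcodes and 9893333 to 43303999 RNA UMIs, and the median kept cell held 1495 to 7163 UMIs across lanes. After filters on genes, mitochondrial share and antibody UMIs, 72054 cells passed, and 69242 were used after 2812 called doublets were set aside. Of 84372 distinct barcodes 981 occurred in 2 or more lanes, with at most 35 shared by a pair of lanes. Cd3e, a TCR complex gene, stood at 426.8 to 1021 CPM and Ptprc (CD45) at 591.2 to 1155 CPM over all cells of each mouse, while an erythrocyte list ranged from 0.0465 to 2869 CPM. AND replicate 2 had the fewest antibody UMIs, and 1901 of its 4518 barcodes passed. In experiment 3 the lanes of OT-I replicate 2, OT-II replicate 2 and B6 replicate 5 were shallower than those of the other mouse of the same genotype.

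Over all cells of a mouse, the members differed between genotypes, and these differences are a description because the thymi held different mixtures of cells. Relb ranged from 5.07 CPM in F5 replicate 2 to 41.5 CPM in MHCI-/- replicate 2, and Nfkb2 from 6.66 to 32.0 CPM in the same mice. Rel was 17.8 and 18.8 CPM in the F5 mice and 50.5 and 51.6 CPM in the MHCI-/- mice. For these 3 factor genes F5 mice had the lowest and MHCI-/- mice the highest median, and the Relb ranges of F5 and OT-II mice overlapped. The ranges of MHCI-/- and B6 mice overlapped for all 3, and Rel reached 52.4 CPM in B6 replicate 2. Nfkb1 varied less, from 55.9 CPM in F5 replicate 2 to 124.5 CPM in B6 replicate 1. Nfkbia ordered the mice otherwise, with 72.6 CPM in OT-I replicate 2, 73.1 CPM in OT-II replicate 2 and 129.6 CPM in B6 replicate 5, against 126.2, 126.8 and 281.0 CPM in OT-I replicate 1, OT-II replicate 1 and B6 replicate 4. Each lower value stood in the shallower mouse of its genotype in experiment 3, and the part of depth in that difference was not tested. Tnfaip3 was highest in B6 replicate 5 at 33.2 CPM and B6 replicate 4 at 27.5 CPM, the mice with the most quiescent double-positive-like cells, at 52.8% and 55.2% of their cells. AND mice had 1.08% and 4.51% of such cells and Tnfaip3 at 10.6 and 14.6 CPM. A lower level in a sum over cells can come from fewer cells with the RNA or from less RNA per cell, which cannot be told apart in these sums.

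In wild-type mice the 7 members were followed over classes of cells, which were clusters of the RNA named from lists of marker genes. Neither the members nor the listed pathway genes entered the clustering, but clusters rest on RNA of the same cells, so that class levels are given with no test. Of 32 clusters 23 were named, and the 9 unnamed ones held 18507 of 69242 cells. All 7 members had their highest mean level in negative selection-like cells, a class of 2 clusters, the larger led by Nr4a1, Gadd45b, Xcl1, Tnfrsf9 and Bcl2l11 and the smaller by Nrgn, Pdcd1, Cldn10, Klhdc2 and Trpm1, with at least 145 cells in each of the 5 mice. Tnfrsf9 and Gadd45b, markers of this class, are also in the pathway list used further on. Nfkbid reached 330.5, 295.8, 179.5, 267.0 and 220.9 CPM in the 5 mice there, against 60.2, 76.4, 43.1, 54.1 and 59.6 CPM in CD4 SP-like cells, the next class. The ranges of these classes did not overlap. The CD4 SP-like class was 1 cluster, and its mean marker score was highest for signaled DP-like cells. Nfkb1 stood at 377.6 ± 77.4 CPM (SD, n = 5) in negative selection-like cells and at 160.9 ± 26.5 CPM (SD, n = 5) in Treg-like cells, the next class, also without overlap. Nfkb2, at 89.6 ± 9.19 CPM (SD, n = 5), exceeded Treg-like cells, at 46.7 ± 10.4 CPM (SD, n = 5), in every mouse. Rel was 125.3, 199.7, 149.8, 238.1 and 232.2 CPM in negative selection-like cells and 91.9, 104.3, 94.7, 117.7 and 168.0 CPM in Treg-like cells, so that the highest Treg-like mouse overlapped the lower mice of the first class. Relb, at 105.2 ± 17.04 CPM (SD, n = 5), overlapped myeloid-like cells, and Nfkbia at 600.4 ± 185.4 CPM and Tnfaip3 at 75.1 ± 19.3 CPM (SD, n = 5) overlapped quiescent DP-like cells. Not every mouse of other genotypes had this order. In MHCII-/- replicate 2 Rel was 58.9 CPM in negative selection-like and 94.5 CPM in Treg-like cells, and Nfkb2 57.3 and 77.3 CPM. Its Nfkbia and Tnfaip3 were higher in quiescent DP-like cells, while Nfkb1, Relb and Nfkbid were highest in negative selection-like cells. Rel was 86.4 and 99.2 CPM in MHCII-/- replicate 1.

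Below these classes the factor genes took a different order from the inhibitor genes Nfkbia and Tnfaip3. In quiescent double-positive-like (DP-like) cells, marked by Rag1, factor genes were low: Nfkb2 was 7.26 ± 1.51 CPM, Rel 18.1 ± 7.20 CPM and Relb 4.18 ± 1.74 CPM (SD, n = 5). Relb was 20.7 ± 5.82 CPM (SD, n = 5) in signaled DP-like cells, 36.7 ± 7.37 CPM in CD4 SP-like and 29.7 ± 4.73 CPM in CD8 SP-like cells, and it did not overlap quiescent DP-like cells in any of these classes. Nfkbia and Tnfaip3 stood high in the same quiescent cells where Relb was lowest. Tnfaip3 measured 42.8, 48.2, 34.4, 45.5 and 54.3 CPM in quiescent DP-like cells of the 5 mice, above the 25.7 ± 3.69 CPM (SD, n = 5) of signaled DP-like cells without overlap, and 11.6 ± 4.35 CPM (SD, n = 5) in CD8 SP-like cells. Nfkbia was 440.5, 445.8, 461.4 and 447.6 CPM in quiescent DP-like cells of 4 mice and 184.8 CPM in B6 replicate 5, the shallow one. Its mean there, 396.0 ± 118.3 CPM (SD, n = 5), differed from that of Treg-like cells, 389.9 ± 70.1 CPM, by less than either SD. Nfkbid, at 11.8 ± 5.87 CPM (SD, n = 5), was like Nfkb2, Rel and Relb low in quiescent DP-like cells, and CD8 SP-like cells had 8.41 to 27.7 CPM (median 25.04), each below every CD4 SP-like value. Mature SP-like cells had 26.2 ± 4.57 CPM (SD, n = 5) of Nfkbid, overlapping CD8 SP-like cells. CD4 SP-like and CD8 SP-like cells can differ in stage as well as in lineage, which these levels cannot tell apart.

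**Figure D1:**
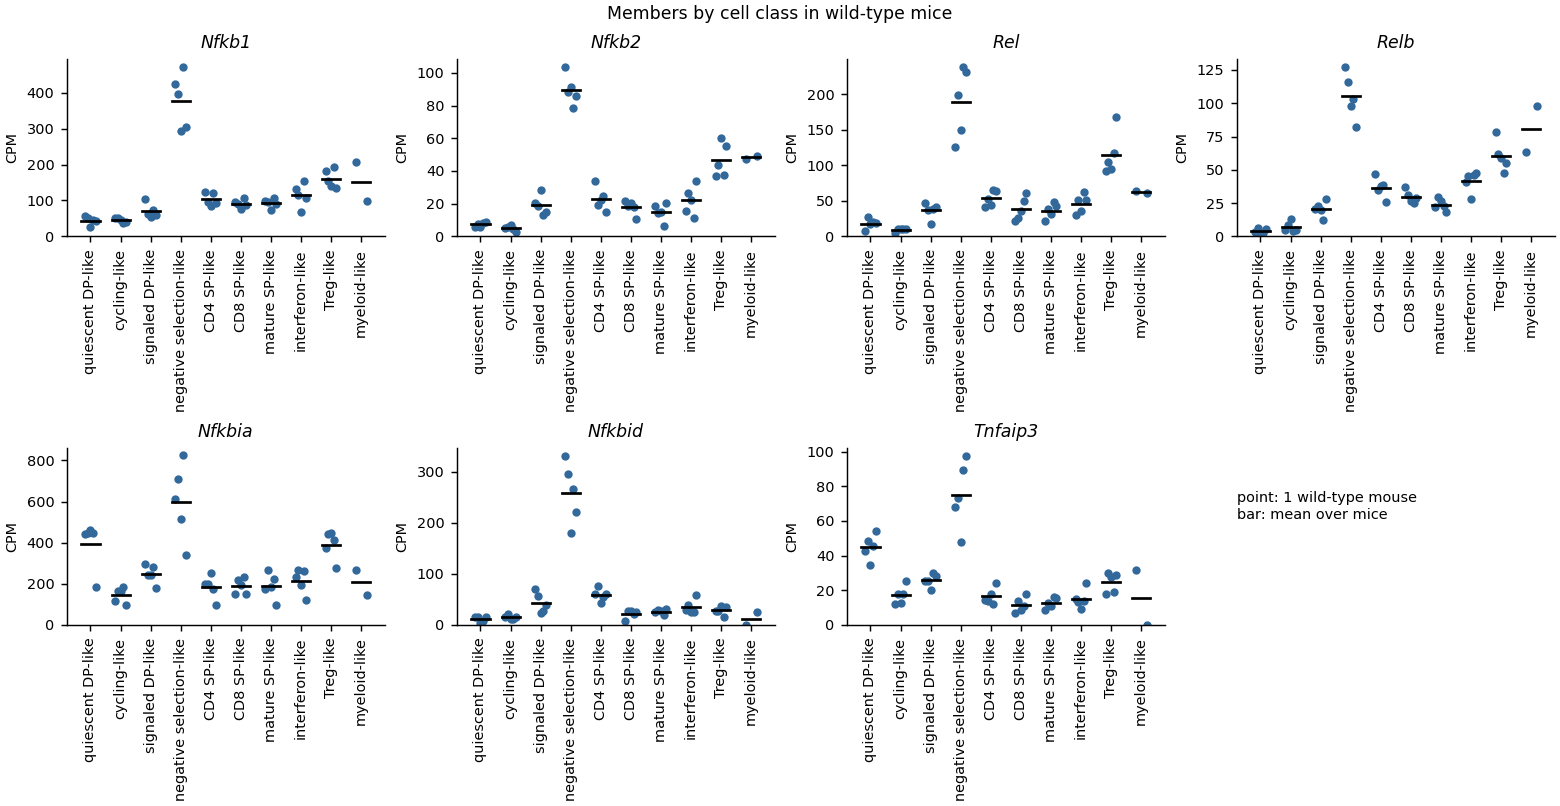
Levels of the 7 members in CPM (linear axes from 0) by cell class in wild-type mice, with 1 point per mouse with at least 20 cells of the class and a bar at the mean. Every member is highest in negative selection-like cells, and Nfkbia and Tnfaip3 are also high in quiescent DP-like cells, where Nfkb2, Rel and Relb are low.

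Myeloid-like cells were measured in 2 wild-type mice, with 29 and 37 cells. Relb was 80.7 ± 24.7 CPM and Nfkb2 48.3 ± 1.16 CPM (SD, n = 2) there, from 12 and 7 UMIs. In myeloid-like cells of AND replicate 1 and MHCII-/- replicate 2 Relb was 17.7 and 23.1 CPM. Interferon-like cells had Nfkb1 at 114.7 ± 32.3 CPM and Relb at 41.8 ± 8.01 CPM (SD, n = 5), and both ranges overlapped those of CD4 SP-like cells. Cycling-like cells had the lowest Rel and Nfkbia of the 10 classes, at 9.23 ± 2.69 and 146.4 ± 35.9 CPM (SD, n = 5). Their Tnfaip3, at 17.2 ± 5.27 CPM (SD, n = 5), did not overlap that of quiescent DP-like cells. Gamma-delta T-like cells, described over 6 mice of other genotypes because no wild-type mouse held 20 of them, had Nfkbia at 80.5 ± 19.3 CPM (SD, n = 6), and 4 of these mice were OT-I or OT-II mice. The others were AND replicate 1 and AND replicate 2. As AND mice are Rag1-/-, the class name rests on marker RNA and not on a gamma-delta TCR.

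Across the 10 wild-type classes the 4 factor genes followed one another closely, which is a description over class means from shared libraries. Pearson's r of log2(CPM + 1) lay between 0.91 for Rel with Relb and 0.97 for Nfkb2 with Rel. Nfkbia and Tnfaip3 resembled each other at r = 0.90. With the factor genes Nfkbia had r of 0.28 (Relb) to 0.62 (Rel), Tnfaip3 of 0.04 (Relb) to 0.37 (Rel) and Nfkbid of 0.57 (Relb) to 0.72 (Nfkb1), and Nfkbid had r of 0.52 with Nfkbia and 0.53 with Tnfaip3. By the same measure the non-member genes most like Nfkb1, Nfkb2 and Relb included Bcl2a1b, at r = 0.94, 0.97 and 0.98, a survival gene whose near-identical paralogs share reads. The other two for Nfkb1 were Nr4a3 at 0.93 and Zfp36l1 at 0.92, those for Nfkb2 Zfp36l1 and Mapkapk2, both at 0.94, and those for Relb Cd82 at 0.97 and Rnf149 at 0.92. Zfp36l1 was the gene most like Rel, at r = 0.98, followed by 2310015A10Rik at 0.96 and Rab8b at 0.95. For Nfkbia they were Mir155hg at 0.92, Plcxd2 at 0.91 and Tmem165 at 0.90, and for Nfkbid they were Isyna1 at 0.94, Tgif2 at 0.93 and Thumpd3 at 0.93. For Tnfaip3 they were Amer1 at 0.91, Atg16l2 at 0.89 and Xab2 at 0.89.

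Antibody counts allowed tests that RNA clusters do not, because the antibodies divide the cells without use of their RNA. CD69, a surface protein that appears after TCR engagement, divided CD4+CD8a+ (DP) cells of each lane, and the upper tercile was compared with the lower tercile within each of the 17 mice. Factor genes and Nfkbid were higher in CD69-high DP cells, Nfkbia was slightly higher and Tnfaip3 did not pass the test. Relb was 6.41 to 79.2 CPM (median 28.8) in the upper tercile and 2.53 to 13.6 CPM (median 5.87) in the lower tercile, higher in 17 of 17 mice. The sides overlapped across mice, as they did for all 7 members. The log2 fold change of Relb was 2.20 ± 0.28 (SE), with an adjusted p of 8.31e-07 (edgeR quasi-likelihood test, Benjamini-Hochberg over all genes). Nfkbid, at a median of 53.6 against 14.4 CPM, rose in 17 of 17 mice by a log2 fold change of 1.82 ± 0.22 (SE, adjusted p = 4.24e-07). Nfkb2 rose in 16 of 17 mice by 1.75 ± 0.23 (adjusted p = 1.68e-06), Rel in 17 of 17 by 1.66 ± 0.20 (adjusted p = 4.68e-07) and Nfkb1 in 17 of 17 by 1.28 ± 0.19 (adjusted p = 6.68e-06), all as log2 fold changes. Nfkbia had a median of 209.8 CPM in the upper and 202.8 CPM in the lower tercile, and its log2 fold change was 0.29 ± 0.06 (SE, adjusted p = 0.000344), higher in 16 of 17 mice. Tnfaip3 had medians of 28.1 and 21.7 CPM, was higher in 10 of 17 mice and had a log2 fold change of 0.17 ± 0.13 (SE, adjusted p = 0.263).

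Thus 6 of the 7 members were called, all in the upward direction, in a comparison in which 60.2% of all 11122 genes tested were called and 29.6% were called higher in the upper tercile. Among all tested genes the log2 fold change of Relb stood at percentile 99.1, those of Nfkbid, Nfkb2 and Rel between 98.1 and 98.4, and that of Nfkb1 at 96.8, while Nfkbia stood at 76.6 and Tnfaip3 at 67.7. The size of the difference varied between genotypes. Nfkb1 was 81.9 and 80.6 CPM in the upper and lower tercile of F5 replicate 1, and 52.4 and 51.8 CPM in F5 replicate 2. Nfkbid was 16.3 against 14.5 CPM in F5 replicate 2, and 156.2 against 18.7 CPM in MHCI-/- replicate 1, and in OT-II replicate 1 Nfkb1 was 70.3 against 66.3 CPM. These genotype patterns were not tested against each other.

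**Figure D2:**
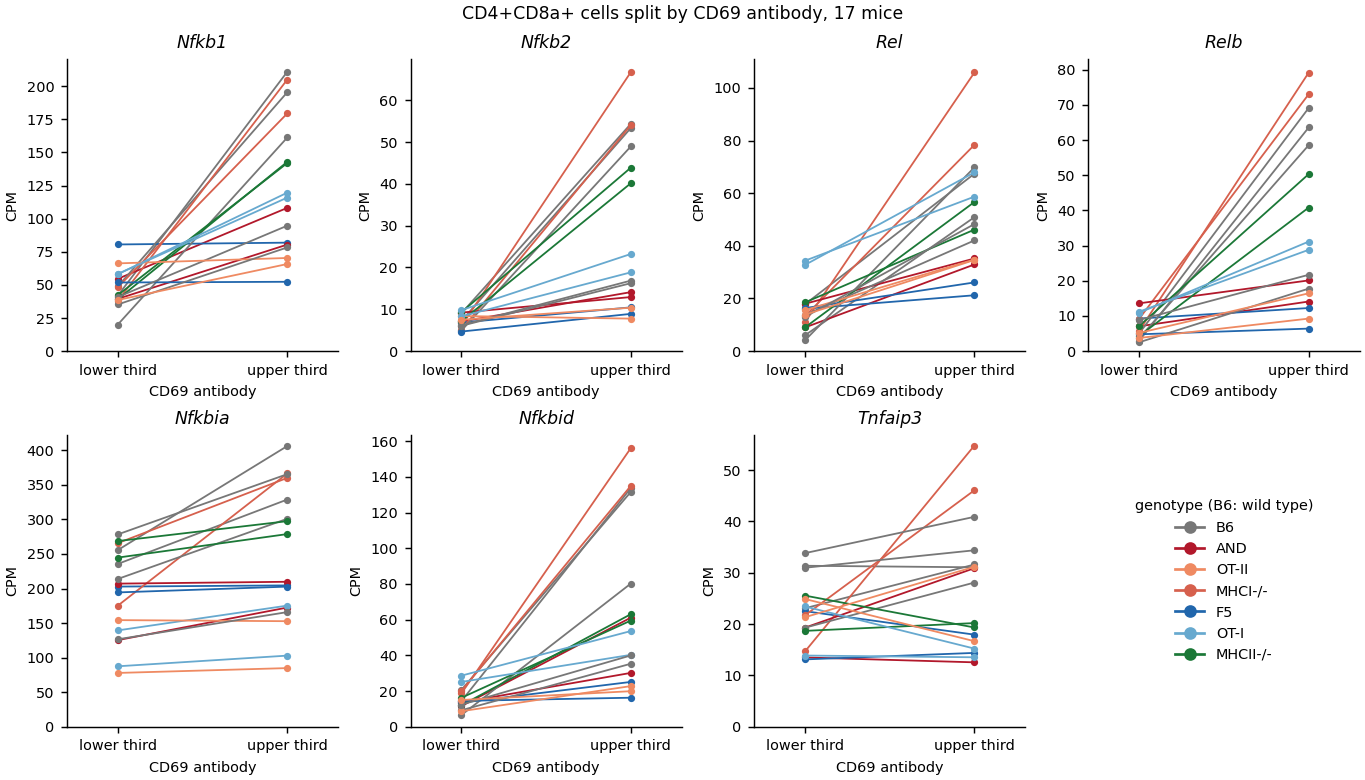
Levels of the 7 members (CPM, linear axes from 0) in CD4+CD8a+ cells of the lower and the upper tercile by CD69 antibody, with 1 line per mouse (17 mice) colored by genotype. Lines for Nfkb1, Rel, Relb and Nfkbid rise in every mouse and are nearly flat in F5 mice for Nfkb1, and lines for Tnfaip3 cross.

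The sides of this split differed in the RNA of marker lists of cell types. A list sum cannot tell more cells of a type from more of this RNA per cell. The cycling list, 9 of whose 10 genes are in the tables, summed to 21.9 to 2124 CPM (median 323.5) in the upper tercile and to 1374 to 7214 CPM (median 3929) in the lower tercile, and was lower in the upper tercile of every mouse. All 9 had UMIs on both sides. The 8-gene negative selection list, with no gene at 0 on either side, summed to 244.6 to 1822 CPM (median 738.8) and to 120.7 to 523.3 CPM (median 221.0), higher in 16 of 17 mice. The Treg list had medians of 445.7 and 259.8 CPM and a B cell list of 222.9 and 393.3 CPM, higher in 15 and lower in 16 of the 17 upper terciles. The heat shock list, at medians of 2081 and 2300 CPM, was lower in 12 of 17. Without cells of cycling-like clusters, all 6 calls held, with Relb at 1.84 and Nfkbia at 0.15 (adjusted p = 0.0226). Without cells of negative selection-like clusters, Relb was at 1.82, Rel at 1.31, Nfkbid at 1.31, Nfkb2 at 1.34 and Nfkb1 at 0.94, all still called, and the call of Nfkbia was lost (log2 fold change 0.08, adjusted p = 0.0926). Both alternatives were chosen after seeing the data. In the 3 mice of experiment 1 alone Nfkbid was the 1 member called. The part of either kind of cell in the remaining difference was not tested.

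Of a list of 63 further pathway genes 57 were tested, of which 36 were higher and 7 lower in the upper tercile, and the median log2 fold change of the list was 0.42 beside 0.00 over all genes tested. All 7 tested receptors of the TNF receptor superfamily were higher, led by Tnfrsf9 (4-1BB, a costimulatory receptor) at a log2 fold change of 4.76 ± 0.23 (SE, adjusted p = 3.40e-11). Tnfrsf9 and Gadd45b also stand in the negative selection marker list. Of 18 listed target genes 16 were tested, 10 rose and 2 fell. Gadd45b, a stress-response gene, rose by a log2 fold change of 3.12, and Bcl2a1d and Bcl2a1b by 2.59 and 2.30. Bcl2l1, the gene for the survival protein Bcl-xL, fell by 1.12 on the log2 scale (adjusted p = 3.15e-07). Tax1bp1, an adaptor of A20, fell by 0.56, Nfkbie, the gene for IkBe, by 0.42 and Traf6 by 0.37 on the log2 scale.

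PD-1 (CD279), an inhibitory receptor that strongly signaled thymocytes carry, was used to divide DP cells as well. The 5% of DP cells highest for PD-1 were compared with the lower 50% in 17 mice. Nfkbia was 68.1 to 240.7 CPM (median 178.7) on the high side and 100.8 to 370.5 CPM (median 244.8) on the low side, lower on the high side in 17 of 17 mice. Its log2 fold change was -0.51 ± 0.06 (SE, adjusted p = 8.30e-07). Tnfaip3 fell by 0.39 ± 0.12 (SE, adjusted p = 0.0133) and was lower in 13 of 17 mice, and Rel fell by 0.33 ± 0.12 (SE, adjusted p = 0.0320) and was lower in 14 of 17, both on the log2 scale. Nfkb1, Nfkb2, Relb and Nfkbid had log2 fold changes of 0.03, 0.04, 0.24 and -0.25, with adjusted p of 0.820, 0.871, 0.224 and 0.0961. The 3 calls stand beside 40.7% of all 10441 genes called and 21.3% called lower. Of 55 tested pathway genes 3 were higher and 21 lower, with Tnfrsf9 at 2.15, Sod2 at 0.50 and Nfkbib at 0.27 among the higher ones and Tnfrsf1a at -0.89, Map3k14 at -0.75, Bcl2l1 at -0.75 and Ltb at -0.74 leading the lower ones, all log2 fold changes that passed the test. The high side held deeper cells, with a median of 4840 against 3427 UMIs per cell over mice and deeper cells in 16 of 17 mice, and its heat shock list was higher in 16 of 17 mice, at medians of 2797 and 1970 CPM. The Treg list, at medians of 735.7 and 343.1 CPM, was higher in 14 of 17 mice, and the negative selection list (744.9 and 463.2 CPM) and cycling list (2173 and 1652 CPM) each in 12. The part of depth and of the heat shock, Treg, NKT and B cell lists in the result was not tested. Without cycling-like cells Rel and Tnfaip3 lost their calls (log2 fold changes of -0.22 and -0.29, adjusted p = 0.139 and 0.102), and Nfkbia kept its own at -0.43. Without negative selection-like cells Nfkbid was called as well, at -0.59 (adjusted p = 0.000346), as it was with library size scaling, with doublets kept and with thresholds 0.5 lower. The Rel call held in 8 of 14 alternatives and that of Tnfaip3 in 9. The alternatives without a kind of cell were chosen after seeing the data.

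CD4+CD8a-TCRb+ (CD4 SP) cells of the lower tercile by CD69, a protein that maturing SP cells lose, were compared with the upper tercile in 15 mice, after both F5 mice were dropped for too few cells. All 7 members were lower in the CD69-low cells, where 28.4% of 10239 genes were called and 12.9% were called lower. Nfkb2 was 2.59 to 29.7 CPM (median 13.3) in the lower tercile and 13.2 to 56.0 CPM (median 33.7) in the upper tercile, Relb 9.41 to 41.1 CPM (median 23.3) and 11.96 to 85.9 CPM (median 43.3), and Nfkbid 18.9 to 52.1 CPM (median 32.0) and 25.6 to 144.9 CPM (median 65.9). Each of these 3 genes was lower in 15 of 15 mice, while the sides overlapped across mice for all 7 members. Nfkb2 fell by 0.99 ± 0.14 (SE, adjusted p = 2.26e-06), Nfkbid by 0.95 ± 0.11 (adjusted p = 9.04e-08) and Relb by 0.69 ± 0.10 (adjusted p = 6.48e-06), all on the log2 scale. Rel, at medians of 38.6 and 68.3 CPM, fell by 0.65 ± 0.10 (adjusted p = 1.41e-05), Tnfaip3, at 12.2 and 20.9 CPM, by 0.61 ± 0.15 (adjusted p = 0.00263), and Nfkb1, at 94.0 and 113.2 CPM, by 0.45 ± 0.08 (adjusted p = 0.000124), lower in 13, 12 and 13 of 15 mice. Nfkbia had medians of 196.8 and 224.8 CPM and fell by 0.25 ± 0.09 (adjusted p = 0.0346), lower in 12 of 15 mice. The 2 mice with Nfkb1 higher in the lower tercile were the MHCII-/- mice, with 24 to 48 such cells a side and 11104 and 9900 UMIs per cell (medians) in the lower against 4239 and 5493 in the upper tercile. Of 56 tested pathway genes 17 rose and 13 fell in the CD69-low cells. Tnfrsf9 fell by 1.96, Gadd45b by 1.79, Bcl2l1 by 1.26 and Bcl2a1d by 1.12, and Ccl5, a chemokine gene, rose by 4.71, Cd83 by 1.71, Il2ra by 1.63 and Traf5, a signaling adaptor of TNF receptors, by 1.41, all on the log2 scale.

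The sides of this split also differed in marker lists, with the same limit on what a list sum can tell. The negative selection list of 8 genes had medians of 279.4 CPM in the lower and 743.2 CPM in the upper tercile and the Treg list of 7 genes of 546.1 and 937.7 CPM, both lower in the lower tercile in 15 of 15 mice. The B cell list (132.0 and 59.8 CPM) was higher there in 15 mice and the cycling list (417.7 and 110.7 CPM) in 13, and cells were deeper in 14 of 15 mice, at medians of 5227 and 4796 UMIs per cell. The myeloid list (186.3 and 150.5 CPM) and the NKT list (25.9 and 15.5 CPM) were each higher in 9 of 15, and the heat shock list (1868 and 2082 CPM) in 8. No gene of the negative selection, Treg and NKT lists was at 0 on either side, and Siglech of the myeloid list was at 0 on both. Without negative selection-like cells the log2 fold changes were closer to 0: Nfkb2, Nfkbid, Relb, Rel and Nfkb1 stayed called at -0.69, -0.59, -0.53, -0.26 and -0.25, and Tnfaip3 and Nfkbia were at -0.25 and -0.10 (adjusted p = 0.216 and 0.303). Without Treg-like cells, and without cycling-like cells, all 7 calls held. These 3 alternatives were chosen after seeing the data. The Nfkbia call held in 10 of 15 alternatives and was lost, among others, with DESeq2 (-0.23, adjusted p = 0.0918) and without AND replicate 2 (-0.23, adjusted p = 0.0596), and the Tnfaip3 call held in 11 of 15. The part of the B cell list and of depth in the result was not tested.

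CD4-CD8a+TCRb+ (CD8 SP) cells split in the same way in 11 mice gave 4 called members, all lower in the lower tercile, where 8.5% of 8058 genes were called and 3.21% were called lower. Nfkb2, at medians of 8.37 and 25.3 CPM, fell by 0.91 ± 0.19 (SE, adjusted p = 0.00181) on the log2 scale, Relb, at 18.3 and 31.0 CPM, by 0.70 ± 0.14 (adjusted p = 0.000695) and Nfkbia, at 130.7 and 185.6 CPM, by 0.39 ± 0.07 (adjusted p = 0.000212), each lower in 11 of 11 mice. Nfkb1 fell by 0.44 ± 0.09 (adjusted p = 0.000659) and was lower in 10 of 11 mice. Nfkbid, Tnfaip3 and Rel had log2 fold changes of -0.35, -0.31 and -0.27, with adjusted p of 0.146, 0.470 and 0.234. The sides overlapped across mice for every member. The negative selection list (269.1 and 643.8 CPM) and the Treg list (261.4 and 516.4 CPM) were lower in the lower tercile in 11 of 11 mice, the cycling (998.3 and 740.7 CPM) and myeloid lists (307.3 and 228.02 CPM) higher in 11 and the B cell list (304.1 and 215.3 CPM) in 10, the heat shock list (2371 and 2624 CPM) lower in 8, and cells were deeper in 9 of 11 mice, at medians of 7272 and 6870 UMIs. Without negative selection-like, Treg-like or cycling-like cells, alternatives chosen after seeing the data, the 4 calls held, and Nfkbid was called as well in the last case (-0.46, adjusted p = 0.0451). All 4 calls were lost in experiment 1, experiment 3 or unsorted mice alone, which hold fewer mice and fewer genotypes. The cause of this loss was not tested. The NKT list (134.1 and 78.7 CPM) was higher in the lower tercile in 8 of 11 mice. The part of the myeloid, B cell and NKT lists and of depth was not tested, and CD4 and CD8 SP cells were not tested against each other. Of 50 tested pathway genes 5 fell and 2 rose, with log2 fold changes of -2.23 for Tnfrsf9, -1.94 for Bcl2a1d, -1.53 for Gadd45b and -1.12 for Bcl2a1b, and of 0.57 for Traf5 and 0.50 for Icam1.

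CD25, the alpha chain of the interleukin-2 receptor encoded by Il2ra, is carried by Treg cells among CD4 SP cells. The 5% of CD4 SP cells highest for CD25 were compared with the lower 50% in 11 mice, without F5, MHCII-/- and OT-I mice, which had too few cells. Rel was 109.3, 143.8, 135.4, 229.8 and 249.6 CPM on the high side of the 5 wild-type mice and 44.9, 69.3, 43.0, 66.2 and 66.6 CPM on their low side, without overlap. In AND mice it was 17.9 and 21.3 CPM on the high side and 28.4 and 34.2 CPM on the low side. Over all 11 mice Rel rose by a log2 fold change of 0.95 ± 0.18 (SE, adjusted p = 0.000843), Nfkb2 by 0.98 ± 0.21 (adjusted p = 0.00277), Nfkb1 by 0.48 ± 0.11 (adjusted p = 0.00566) and Nfkbia by 0.58 ± 0.18 (adjusted p = 0.0359). The Nfkbia call held in 6 of 14 alternatives and was lost with DESeq2 (0.51, adjusted p = 0.281), with doublets kept (0.56, adjusted p = 0.0555) and with thresholds 0.5 lower (0.53, adjusted p = 0.104), among others. Relb, Nfkbid and Tnfaip3 were at 0.28, 0.01 and 0.41, with adjusted p of 0.321, 0.999 and 0.353. The 4 calls stand beside 10.3% of 7882 genes called and 5.32% called higher.

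The 7-gene Treg list, of which Il2ra is a member, summed to 2606 to 4085 CPM on the high side in wild-type and MHCI-/- mice and to 178.9 to 797.5 CPM in AND and OT-II mice, against 229.8 to 616.7 CPM on the low sides of all 11 mice, with none of its genes at 0 on either side. The negative selection list, at medians of 1812 and 231.7 CPM, was higher on the high side in 9 of 11 mice, and a heat shock list (2370 and 1768 CPM) and a myeloid list (233.9 and 118.96 CPM) each in 10. The NKT list (100.5 and 22.6 CPM) was higher there in 8 of 11. Of the 10 myeloid genes Itgax had no UMI on the high side and Siglech none on the low side. The part of the negative selection, heat shock, myeloid and NKT lists in the result was not tested. Without AND and OT-II mice 5 members were called, with Rel at 1.29, Nfkb2 at 1.22, Nfkbia at 0.99, Tnfaip3 at 0.77 and Nfkb1 at 0.72. The share of all genes called is not given for this alternative or the next. Without cells of the Treg-like cluster Nfkb1 was the 1 member called, at 0.42 (adjusted p = 0.0251), and Rel, Nfkb2 and Nfkbia were at 0.46, 0.57 and 0.22 without passing the test. Both alternatives were chosen after seeing the data. Of 55 tested pathway genes 17 rose and 3 fell, among them Il2ra itself at a log2 fold change of 6.05, which the antibody used for the split reads as protein, Cd83 at 5.13, Tnfrsf9 at 3.00 and Tnfrsf4 at 2.64. Malt1, Tnfrsf1a and Cyld fell by 0.73, 0.61 and 0.39 on the log2 scale.

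CD5, a surface protein whose level follows the strength of TCR signals, divided the CD69-low 50% of CD4 SP cells in 14 mice. Nfkbid was 23.7 to 90.7 CPM in the upper tercile by CD5 and 19.9 to 49.8 CPM in the lower tercile, higher in 12 of 14 mice, with a log2 fold change of 0.44 ± 0.11 (SE, adjusted p = 0.00738). Nfkbia rose by 0.32 ± 0.08 (SE, adjusted p = 0.00644) on the log2 scale and was higher in 11 of 14 mice. Rel, higher in 12 of 14 mice, had a log2 fold change of 0.34 ± 0.12 (SE, adjusted p = 0.0730), and was called without a low-count filter, with doublets kept, with thresholds 0.5 higher and with the wider split (adjusted p = 0.0475, 0.0281, 0.0142 and 0.0257). Nfkb1, Nfkb2, Relb and Tnfaip3 were at 0.11, 0.08, 0.23 and 0.11, with adjusted p of 0.586, 0.811, 0.421 and 0.869. The 2 calls stand beside 9.78% of 9176 genes called and 4.22% called higher. The upper tercile held shallower cells in 14 of 14 mice (medians of 4828 and 5405 UMIs per cell) and a lower cycling list in 11 of 14 (medians of 119.2 and 665.1 CPM). Its heat shock list was lower in 12 of 14 mice (medians of 1644 and 1981 CPM). Its Treg list was higher in 11 of 14 mice (717.7 and 377.1 CPM), its negative selection list in 10 (472.2 and 237.3 CPM), and its B cell (82.1 and 190.3 CPM), NKT (16.6 and 52.7 CPM) and myeloid lists (98.6 and 261.0 CPM) were lower in 13, 13 and 12, all as medians. The part of these lists in the result was not tested, except by leaving out Treg-like cells as given next. Zbtb16 and Tbx21 of the NKT list and Itgax and Siglech of the myeloid list had no UMI in the upper tercile. Without Treg-like cells Nfkbid stayed called at 0.42 and Nfkbia was at 0.21 (adjusted p = 0.0937), an alternative chosen after seeing the data. Of 56 tested pathway genes 6 rose, led by Tnfrsf9 at 1.72 and Tnfrsf4 at 1.26 with Tnfrsf18 (GITR) at 0.62 and Bcl3 at 0.59, and Ccl5 fell by 6.10 on the log2 scale.

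**Figure D3:**
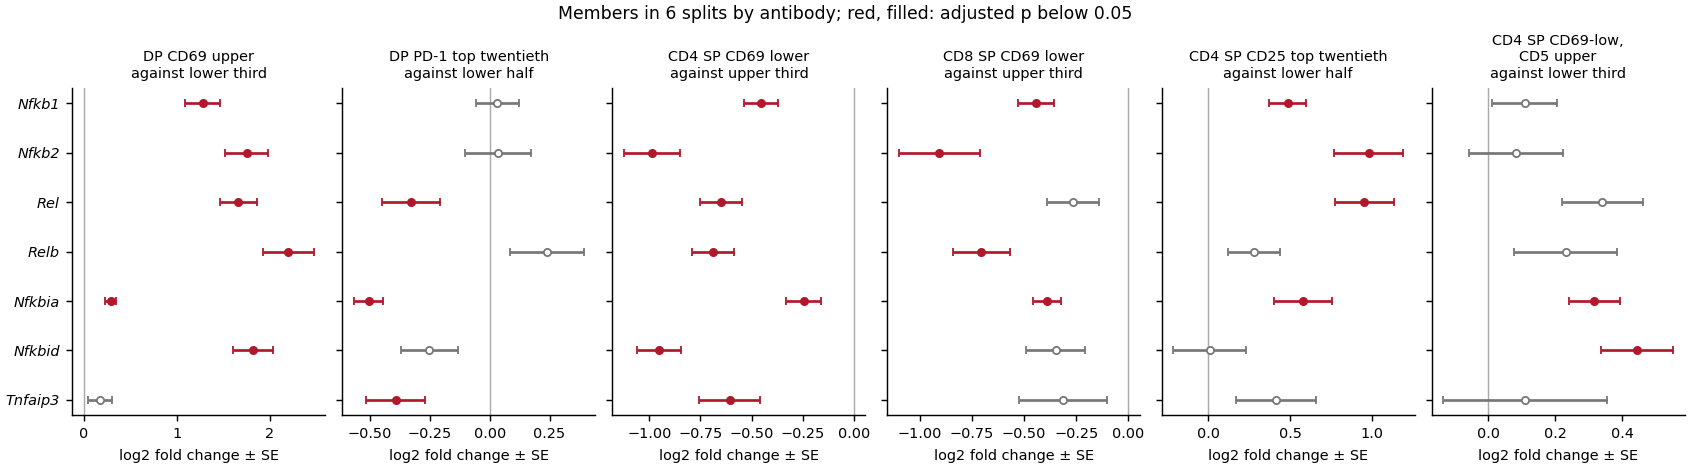
Log2 fold change with its standard error (horizontal axis, its own scale in each panel) of the 7 members in 6 splits of cells by antibody, fitted within mice. Filled red points passed an adjusted p of 0.05, and open gray points did not. 6 members are filled for CD69 in DP cells, 3 for PD-1, 7 for CD69 in CD4 SP cells, 4 in CD8 SP cells, 4 for CD25 and 2 for CD5.

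To follow the members along positive selection, cells of 9 clusters were ordered by a diffusion pseudotime computed without the members and the pathway list, and were cut into 8 bins of equal cell number. Of these clusters 3 were unnamed and held 11073 of 30797 cells, and 1678 of 8509 in wild-type mice, and the others were named as signaled DP-like to mature SP-like. Over the bins Rag1 fell from 74.5 to 6.96 CPM and S1pr1, a gene of mature cells, rose from 5.11 to 253.0 CPM. In wild-type mice Relb was 16.6 ± 12.3 CPM in bin 2, 48.8 ± 17.6 CPM in bin 6 and 20.8 ± 6.30 CPM in bin 8 (SD, n = 5). Nfkb2 and Nfkb1 also had their highest wild-type mean in bin 6, at 33.4 ± 11.2 and 117.6 ± 21.6 CPM, and Rel and Nfkbid in bin 5, at 53.6 ± 7.78 and 57.0 ± 17.2 CPM (SD, n = 5). Nfkbia was highest in bin 1, at 325.0 ± 132.4 CPM, stood at 171.6 ± 39.2 CPM in bin 4 and at 247.0 ± 72.5 CPM in bin 6 (SD, n = 5). Tnfaip3 was 55.4 ± 25.2 CPM in bin 1 and 9.17 ± 3.21 CPM in bin 8 (SD, n = 5). These courses are descriptions, because the order was made from RNA of the same cells.

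**Figure D4:**
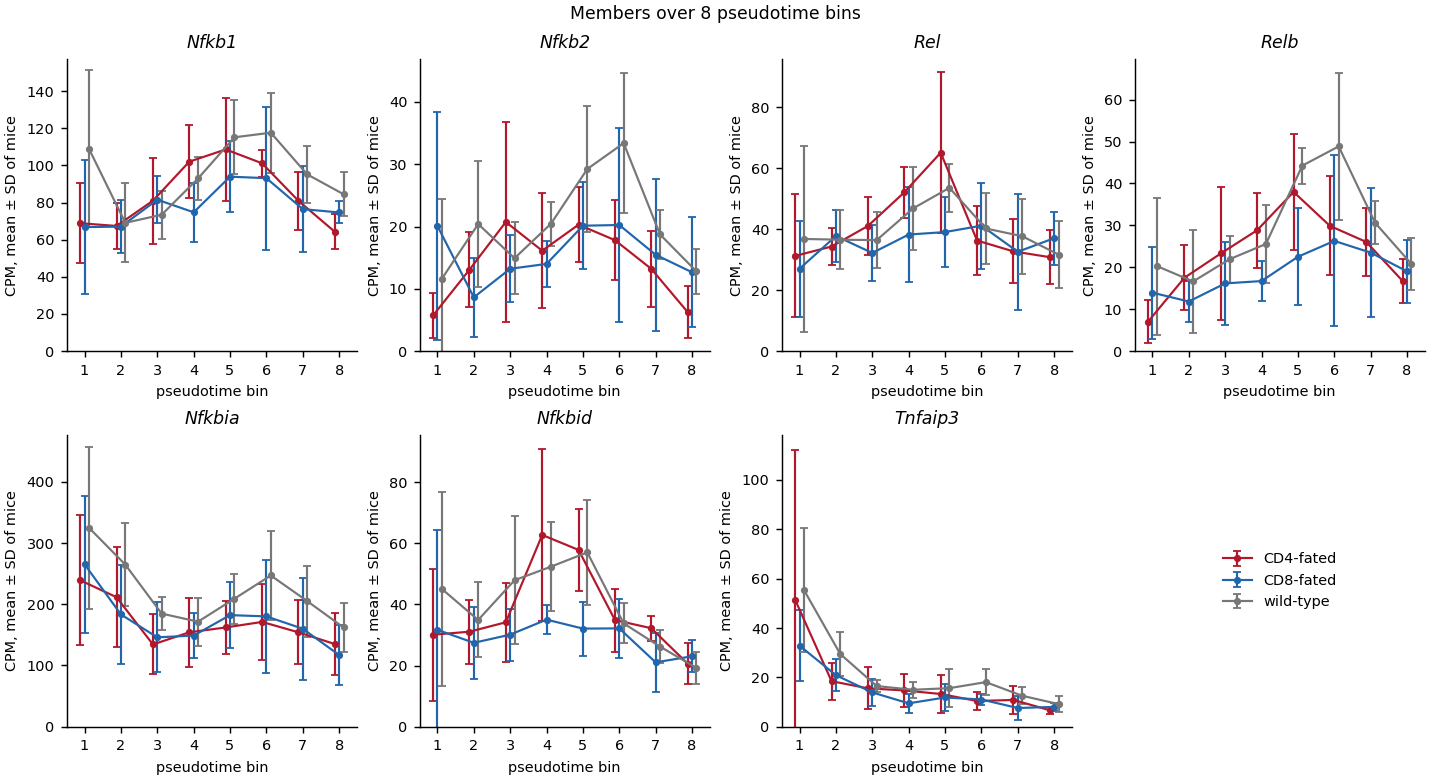
Mean CPM (linear axes from 0, bars show SD over mice, cut at 0) of the 7 members in 8 pseudotime bins for CD4-fated mice (6 mice), CD8-fated mice (6 mice, 5 in bin 7 and 4 in bin 8) and wild-type mice (5 mice). Nfkbid, Rel and Relb of CD4-fated mice lie above those of CD8-fated mice in bins 4 and 5, and Tnfaip3 falls from bin 1 in each group.

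CD4-fated and CD8-fated mice were then compared within each bin, and the fit held a term for 3 families of 2 genotypes each, namely AND and F5, the genotypes without an MHC class, and OT-II and OT-I. Among clusters of the ordered cells, the earliest on the CD4 branch had a median rank of 0.553 of the order, within bin 5. The earliest on the CD8 branch had 0.725. Cells of 1 bin can thus differ in stage or branch between lineages, which these fits cannot tell apart from lineage. As fitted with TMM, the low-count filter and the family term, members were called between the lineages in bin 5 and in no other bin. The antibody level of CD69 was highest in bin 5, while Cd69 RNA was highest in bin 3, at 236.1 CPM against 135.7 CPM in bin 5. Calls that other settings gave in bin 4 are given with its values, and Nfkb2 was called in bin 8 without OT-I replicate 2. Ranges overlapped for every member in every bin. In bin 5 Nfkbid was 32.8 to 69.6 CPM (median 62.2) in 6 CD4-fated and 19.0 to 40.6 CPM (median 35.0) in 6 CD8-fated mice, with OT-II replicate 1 the 1 CD4-fated mouse inside the CD8-fated range. Its log2 fold change, CD4-fated over CD8-fated, was 0.85 ± 0.20 (SE, adjusted p = 0.0121). Relb was 16.98 to 55.3 CPM (median 38.9) against 5.70 to 34.4 CPM (median 24.9) and higher by 0.95 ± 0.24 (SE, adjusted p = 0.0167) on the log2 scale. Rel, the gene of the factor subunit c-Rel, was 51.4 to 118.8 CPM (median 55.7) against 25.5 to 60.1 CPM (median 37.1) and higher by 0.64 ± 0.18 (SE, adjusted p = 0.0384) on the log2 scale. The highest Rel value was that of OT-II replicate 2, from 53 cells. These 3 calls stand beside 5.75% of 7582 genes called in bin 5 and 2.97% called higher in CD4-fated mice. Nfkb1, Nfkb2, Nfkbia and Tnfaip3 had log2 differences of 0.26, 0.08, -0.14 and 0.31 there, with adjusted p of 0.537, 0.948, 0.804 and 0.751.

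Values by family of genotypes stood as follows. Log2 ratios of the genotype means in bin 5 were 1.62 for Nfkbid, 1.83 for Relb and 0.70 for Rel in AND against F5 mice, and 0.71, 1.03 and 0.62 in MHCI-/- against MHCII-/- mice. In OT-II against OT-I mice, the family of experiment 3, they were 0.24, -0.32 and 0.81, so that the Relb ratio had the other sign there. Differences between families were not tested. In bin 4, one step earlier, Nfkbid was 74.6 and 106.1 CPM in AND mice and 48.4 and 77.1 CPM in MHCI-/- mice, each above the 33.3 to 39.7 CPM of F5 and MHCII-/- mice, while OT-II mice at 33.3 and 36.7 CPM lay beside OT-I mice at 26.9 and 33.9 CPM. Its fitted log2 difference in bin 4 was 0.78 with an edgeR adjusted p of 0.0762, where 1.16% of 7267 genes were called. Nfkbid was called in bin 4 by DESeq2 (0.79, adjusted p = 0.0459), without a low-count filter (0.74, adjusted p = 0.0328), with the pair of the same family and replicate number as a block (0.79, adjusted p = 0.0335), with cells ordered by a gene score (1.08, adjusted p = 0.0263) and with another clustering seed (0.96, adjusted p = 0.0128). It was also called there without OT-I replicate 1, OT-II replicate 1 or OT-I replicate 2 (0.79, 0.90 and 0.86, adjusted p = 0.0498, 0.0358 and 0.0175), and Nfkb1 was called with it in the last case (0.58, adjusted p = 0.0461). With all mice no member was called by edgeR or DESeq2 in bins 1, 2, 3, 6, 7 and 8, where edgeR called 0.0591%, 0.0407%, 0.164%, 5.90%, 6.31% and 15.2% of the genes tested. No member had an unadjusted p under 0.05 in these bins by either tool, while other settings of edgeR with all mice gave up to 3 members in bin 7 and 1 each in bins 3 and 8 at that level. Bin 8 held no F5 mouse and bin 7 only 1, since F5 mice had under 10 cells there. A heat shock list in bin 5 stood at 1768 ± 326 CPM (SD, n = 6) for CD4-fated mice, and CD8-fated mice had 2353 ± 698 CPM (SD, n = 6). The Treg list ranged from 144.3 to 1059 CPM and from 159.1 to 452.9 CPM, and the negative selection list from 190.2 to 314.1 CPM and from 254.4 to 731.1 CPM. The 7-gene B cell list was 50.6 to 91.8 CPM in CD4-fated and 137.1 to 345.8 CPM in CD8-fated mice, without overlap. Their part in the result was not tested.

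**Figure D5:**
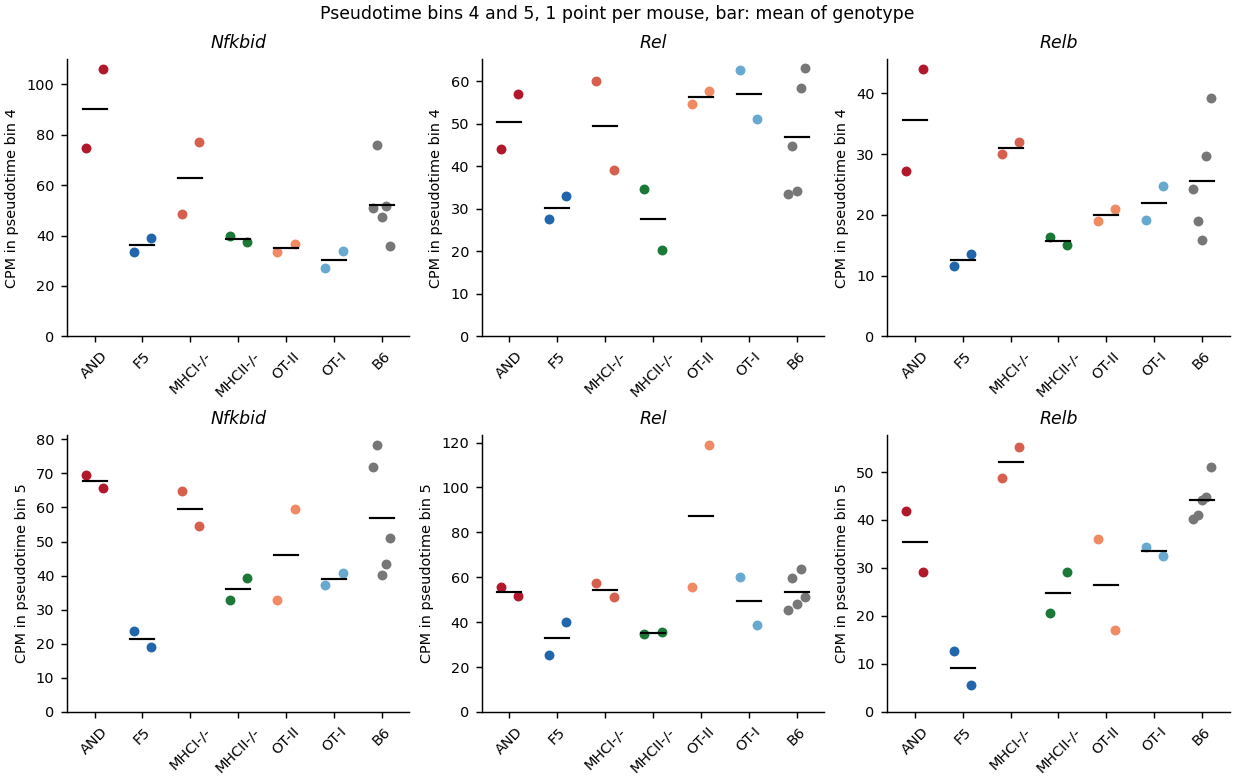
Levels of Nfkbid, Rel and Relb (CPM, linear axes from 0) in pseudotime bins 4 (top) and 5 (bottom), with 1 point per mouse and a bar at the genotype mean. Each AND mouse lies above each F5 mouse and each MHCI-/- mouse above each MHCII-/- mouse in all 6 panels, and OT-II and OT-I mice overlap in all 6.

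Whether the lineage difference itself changed along the bins was tested with 1 coefficient per mouse. Rel (adjusted p = 0.00632) and Nfkbid (adjusted p = 0.0106) were called, where 19.8% of 9511 genes were. Relb had an adjusted p of 0.0633, Nfkb1 of 0.299, Nfkb2 of 0.448, Nfkbia of 0.516 and Tnfaip3 of 0.624. The Rel call held in 17 of 17 alternatives and that of Nfkbid in 16 of 17, lost without MHCI-/- replicate 2 (adjusted p = 0.0783). The calls of Rel and Relb in bin 5 depended on single mice, on the clusters and on the order of the cells. With cells ordered by a gene score in place of pseudotime, both were lost, at log2 differences of 0.27 and 0.60 (adjusted p = 0.635 and 0.343), and with cells on the branch of the other lineage kept Rel was lost (0.61, adjusted p = 0.0519). The Rel call was lost without either AND mouse, F5 replicate 1, any mouse without an MHC class or OT-II replicate 2, 8 of the 12 mice, at log2 differences of 0.56 to 0.69 and adjusted p of 0.0674 to 0.106. The Relb call was lost without MHCI-/- replicate 1, MHCI-/- replicate 2 or MHCII-/- replicate 1 (adjusted p = 0.0503, 0.0923 and 0.0932). Both were lost when the clustering was repeated with another random seed (log2 differences of 0.41 and 0.71, adjusted p = 0.288 and 0.0942), an alternative chosen after seeing the data. The Nfkbid call in bin 5 held in all 21 alternatives, at log2 differences of 0.63 to 1.00 and adjusted p up to 0.0480. Without a family term Nfkbid was the 1 member called. Of the pathway list 48 genes were tested in bin 5, 4 were higher and 2 lower in CD4-fated mice. Tnfrsf4 was higher by 3.21 ± 0.46 (SE, adjusted p = 0.000156), Bcl2a1d by 1.83, Bcl2a1b by 1.73 and Tnfrsf18 by 1.45, and Icam1 and Ltb had differences of -1.25 and -0.85, all on the log2 scale. Tnfrsf4 stayed higher in CD4-fated mice in bins 6, 7 and 8, at 3.41, 4.09 and 3.48, and Icam1 stayed lower at -1.88, -2.63 and -3.38, where 0 of the 7 members were called.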

How the data were processed

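RNA and antibody tags were measured by CITE-seq in thymocytes of 17 mice over 19 lanes. The authors deposited UMI counts per gene and per antibody, not normalized, for each lane. Per the submitters' processing notes these were made with Cell Ranger 3.1.0 on GRCm38 (mm10). Deposited tables that aggregate lanes were not used. Groups were taken from the labels, and the mouse was the replicate, with 2 lanes of B6 replicates 4 and 5 summed.

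Cells with a mitochondrial share up to 15%, at least 200 genes, 1000 to 10000 antibody UMIs and at least 70 of 111 antibodies were kept. Doublets were called from simulated doublets at 0.8% of cells per 1000 barcodes in a lane. Cells were clustered with leidenalg 0.10.2 (resolution 1.5, 20 neighbors, 30 principal components of 2000 variable genes without the members and the 63 pathway genes) after batch integration by experiment, in python 3.11.15. Experiment 3 entered this integration as 2 batches of lanes that differ in depth. The shallower batch held OT-I replicate 2, OT-II replicate 2 and B6 replicate 5. The clustering settings were chosen after seeing the data, and clusters shifted with small numerical changes. Of the 30797 trajectory cells, 386 on the branch of the other lineage were left out. Antibody gates were set per experiment at the density minimum of log2 antibody levels, or by Otsu's method for TCRb in experiment 2, and cells were then ranked by antibody within a lane.

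UMIs were summed per mouse and side (at least 20 cells) or bin (at least 10 cells) and passed to edgeR 4.0.16, run in R 4.3.3 (TMM, filterByExpr, quasi-likelihood F test, Benjamini-Hochberg adjustment over all genes tested, threshold 0.05). Splits by antibody were fitted with the mouse as a block, and lineages with a term for the family of genotypes. Standard errors were computed back from the log2 fold change and F. In the splits the p-values measure the spread over these mice of the differences within a mouse. Between lineages they measure the spread of mice around lineage and family. No term for genotype was held there, so mice of the same genotype count as separate replicates. On simulated counts with 200 changed genes the fit recovered 70% of 2-fold and 100% of 4-fold changes with 4 false calls in bin 3 (7698 genes), and 100% of both with 6 false calls for CD69 in DP cells (10621 genes). The simulation gave every gene the same dispersion and held no effect of mouse, genotype or family. Only genes with a mean of at least 20 counts were changed, so recovery was not measured for members with fewer UMIs. Alternatives were DESeq2 1.42.0, library size scaling, no low-count filter, doublets kept, shifted gates, wider splits, each experiment and unsorted mice. For the lineages they were also no family term, a replicate block, another ordering, the other branch kept and leaving out each mouse. In the splits the only mouse left out was AND replicate 2, an alternative chosen after seeing the data.

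The members and gene lists were chosen with earlier results of these data known. All members are named in every comparison, with up to 4 called pathway genes per direction by size of log2 fold change, and with the 3 genes most like each member over wild-type classes among genes of at least 20 CPM in a class.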

Additional observations from a re-analysis of the deposited data

Results flagged for a closer look

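Of 175 sets of 4 to 10 mice compared for a member's level, 13 held a mouse far from the others by Dixon's test at 95%, where chance gives about 1 in 20. In bin 1, where some of these values stand, MHCI-/- replicate 1 had 11 cells, OT-I replicate 2 had 15 and MHCII-/- replicate 1 had 22. In CD8-fated mice OT-I replicate 2 had 0 CPM of Nfkb1 in bin 1 (other mice 67.5 to 106.1 CPM) and 105.8 CPM in bin 4 (63.7 to 76.4 CPM). It also had 30.8 CPM of Nfkbid (19.3 to 21.1 CPM) and 10.3 CPM of Tnfaip3 (7.13 to 7.47 CPM) in bin 8. MHCII-/- replicate 1 had 94.0 CPM of Nfkb1 in bin 2 (54.5 to 68.1 CPM) and 94.5 CPM of Nfkbid in bin 1 (0 to 31.3 CPM). In CD4-fated mice MHCI-/- replicate 1 had 68.9 CPM of Rel (11.5 to 33.0 CPM) and 172.4 CPM of Tnfaip3 (10.0 to 45.8 CPM) in bin 1, and 32.9 CPM of Tnfaip3 in bin 2 (12.8 to 19.7 CPM). OT-II replicate 2 had 118.8 CPM of Rel in bin 5 (51.4 to 57.3 CPM) and 21.8 CPM of Tnfaip3 in bin 7 (6.94 to 11.7 CPM). In wild-type mice Rel was 4.46 CPM in cycling-like cells of B6 replicate 1 (9.91 to 10.98 CPM), and Nfkbia was 184.8 CPM in quiescent DP-like cells of B6 replicate 5 (440.5 to 461.4 CPM).

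The lineage difference itself changed over the bins for Rel (adjusted p = 0.00632) and Nfkbid (adjusted p = 0.0106, both edgeR). The other members were not called. In the same test 19.8% of 9511 genes were called, so that such a call was common among all genes and does not set the members apart.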

How the results depend on the processing

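The 6 calls of members by CD69 in DP cells fell to 1 in experiment 1 alone. For PD-1 the 3 calls became 0 in experiment 1, 1 in experiments 2 and 3 each and 1 in unsorted mice alone, 1 without cycling-like cells, 2 with thresholds 0.5 higher, and 4 with thresholds 0.5 lower, library size scaling, doublets kept or no negative selection-like cells. The 7 calls by CD69 in CD4 SP cells numbered 5 to 7 under 15 alternatives. The 4 in CD8 SP cells became 0 in experiment 1, experiment 3 or unsorted mice alone, and 6 with thresholds 0.5 lower. The 4 calls by CD25 became 1 with the wider split, in experiment 3 alone and without Treg-like cells, and 0 in experiment 1 or unsorted mice alone. In experiment 1 alone the CD25 log2 fold changes of Nfkb2 and Nfkbia turned to -0.0497 and -0.0327. The 2 calls by CD5 became 0 in experiment 1, experiment 2 or unsorted mice alone, 1 in experiment 3 alone and without Treg-like cells, and 3 without a low-count filter, with doublets kept, with thresholds 0.5 higher or with the wider split. Experiments and unsorted mice alone hold fewer mice and fewer genotypes. The cause was not tested for any of these changes. Shares of all genes called are not given for these alternatives or for those of the next paragraph. A change in the count of members cannot be set against a general change in calls.

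Leaving out 1 mouse at a time gave 1 to 5 calls, counted per member and bin, of members higher in CD4-fated mice (3 with all mice), with 1 without MHCI-/- replicate 1, MHCI-/- replicate 2 or MHCII-/- replicate 1 and 5 without OT-I replicate 2. It gave 0 to 1 such calls higher in CD8-fated mice (0 with all mice), the 1 being Nfkb2 in bin 8 without OT-I replicate 2. For a lineage difference that changes over the bins it gave 1 to 4 members (2 with all mice), with 1 without MHCI-/- replicate 2 and 4 without OT-I replicate 2. Without a family term there was 1 call higher in CD4-fated mice. With a replicate block, the pair of the same family and number, there were 4 such calls on 3 members, the added one being Nfkbid in bin 4. Deviations of same-numbered mice correlated at 0.00494 for AND with F5, 0.586 for the genotypes without an MHC class and 0.955 for OT-II with OT-I, with 2 pairs each. The number goes with the experiment for AND and F5 alone, and with the depth of the lanes for OT-II and OT-I. The numbers were therefore not taken to pair the mice of all families. Of 1217 values of uncalled members under alternatives 22 were newly called. The CD69 call of Nfkbid in DP cells held in 14 of 14 alternatives. Depth limits bin 1 most, where MHCI-/- replicate 1 had 11 cells, B6 replicate 3 had 13 and OT-I replicate 2 had 15.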
